A study of Mus musculus with 6 samples.

Results

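The classical complement pathway was followed in mouse kidney through 8 of its genes: the 3 chains of C1q (C1qa, C1qb and C1qc, the last listed as C1qg in older annotation), the C1 proteases C1r and C1s, the components C2 and C4b, and Serping1, the C1 inhibitor. The members were the non-control probes whose gene name in the scanner files is one of these, which gave 11 of the 41174 probes on the array. C1r, C1s and C2 have 2 probes each and the other genes 1. All 11 probes stood well above background on all 6 arrays, so none was lost to the filter on dim probes, and the 8 genes were among the 19598 genes tested.

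The arrays hold both kidneys of 3 mice of the outbred CD-1 stock, numbered 495, 485 and 512. In each mouse the left ureter had been completely tied (ligated kidney), and the right kidney, whose ureter was left untied, served as that animal's control (contralateral kidney). The labels give no sex, age, genotype or time since ligation, and they name the material both as kidney and as primary cells. The control is the other kidney of an operated mouse, not a kidney of an untouched mouse.

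In the classical pathway, C1q recognises bound antibody, pentraxins or dying cells, and the protease C1r then activates C1s. C1s cleaves C4 and C2, whose fragments join to form the convertase that cleaves C3, and Serping1 inactivates C1r and C1s. C1q is made mainly by macrophages and related myeloid cells, whereas C1r, C1s, C4 and the C1 inhibitor are made by liver and by many stromal and epithelial cells.

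What each probe can report follows from its sequence and its annotation, so the probes on which the results turn are shown here as the files give them, in lower case throughout. Positions are those of the mm8 build named in the file headers. The C1qa and C1qb probes lie on chromosome 4, the C1r and C1s probes on chromosome 6, the C4b and C2 probes on chromosome 17 and the Serping1 probe on chromosome 2.
C1qa probe, chr4:136168570-136168629 (minus strand): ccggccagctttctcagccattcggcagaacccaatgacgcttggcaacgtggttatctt
C1qb probe, chr4:136152739-136152798 (minus strand): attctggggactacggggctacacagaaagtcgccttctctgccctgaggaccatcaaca
C1r probe annotated to C1rb, chr6:124540910-124540969 (plus strand): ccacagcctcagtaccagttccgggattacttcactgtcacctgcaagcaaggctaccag
C1s probe, dimmer of 2, chr6:124497068-124497127 (minus strand): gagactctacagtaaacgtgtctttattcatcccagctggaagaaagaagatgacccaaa
C2 probe, dimmer of 2, chr17:34471237-34471412 (minus strand): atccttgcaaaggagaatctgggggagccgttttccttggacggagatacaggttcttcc
C4b probe, chr17:34337472-34337531 (minus strand): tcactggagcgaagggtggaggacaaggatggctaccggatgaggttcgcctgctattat
C4a probe (not a member), chr17:34430010-34430069 (minus strand): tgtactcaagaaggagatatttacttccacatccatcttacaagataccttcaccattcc
Serping1 probe, chr2:84566650-84568156 (minus strand): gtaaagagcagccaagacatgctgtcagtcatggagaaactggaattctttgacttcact
The coordinates of the C2 probe span 176 bases and those of the Serping1 probe 1507 bases of genome for 60 bases of probe. Both C4b and its neighbour C4a are listed as targets of the C4b probe and of the C4a probe alike, and these near-identical copies cannot be told apart here. One of the 2 probes named C1r is annotated to the mRNA of C1rb, a near-identical copy of C1ra, which is the current symbol of C1r. C1s is C1s1 under current naming. The 3 C1q probes lie within 15.9 kb of chromosome 4.

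The C1q chains, the C1 proteases and the C1 inhibitor were all higher in the ligated kidney, C4b was lower and C2 did not pass the test. C1qa rose 10.5-fold, C1qc 10.3-fold and C1qb 8.91-fold, Serping1 7.16-fold, C1s1 6.95-fold and C1ra 5.15-fold, while C4b fell 2.16-fold (n = 3 mice each). Of the 8 genes, 6 rose and 1 fell at an adjusted p under 0.05 in the paired limma fit, against 16% of all genes tested that rose and 14.7% that fell (30.7% either way). The median log2 fold change of the 8 genes was 2.82, beside -0.01 over all genes tested. In bulk tissue, a change in the number of cells that make a transcript and a change in transcript per cell cannot be told apart.

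Levels below are log2 processed signals minus the 75th percentile of the array, and a level is compared between arrays and not between probes. Changes are ligated minus contralateral within a mouse, and errors of fold changes are SE. Values given together follow the order of mice 495, 485 and 512 unless said otherwise, and adjusted p is over all genes.

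**Figure D1:**
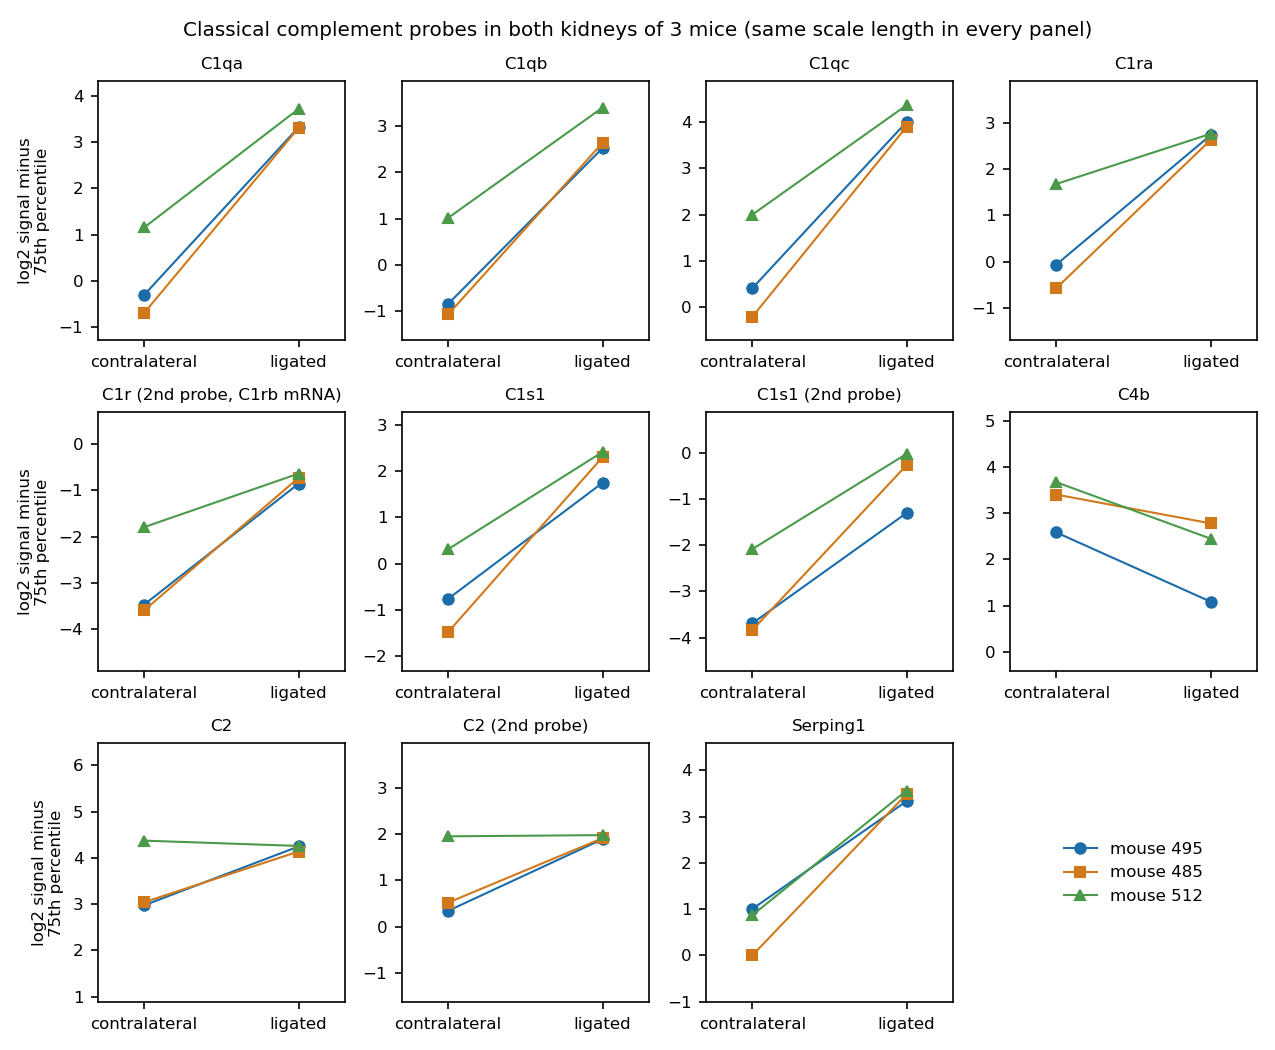
Level of each of the 11 probes (log2 processed signal minus the 75th percentile of the array, y axis) in the contralateral and the ligated kidney (x axis) of mice 495, 485 and 512, with a line joining the kidneys of 1 mouse. Lines of the C1q, C1r, C1s and Serping1 probes climb in all 3 mice, those of C4b descend, and C2 is flat in mouse 512.

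The A, B and C chains form the C1q molecule in equal parts, and their transcripts moved together. The C1qa level was -0.30, -0.69 and 1.15 in the controls and 3.32, 3.31 and 3.72 in the ligated kidneys. As unscaled processed signal this was 599, 414 and 2460 against 13590, 14174 and 14047. The ligated kidneys were close to each other, the contralateral kidney of mouse 512 lay between them and the other controls, and the groups did not overlap, as for 24.7% of all genes in this direction and 28.8% in the other. The log2 fold change of C1qa was 3.40 ± 0.33 (adjusted p = 0.0221, limma).

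C1qb stood at -0.84, -1.07 and 1.02 in the controls and at 2.53, 2.64 and 3.40 in the ligated ones, a log2 fold change of 3.15 ± 0.31 (adjusted p = 0.0221). C1qc stood at 0.41, -0.21 and 2.00 against 4.01, 3.90 and 4.37, a log2 fold change of 3.36 ± 0.39 (adjusted p = 0.0233). For both chains mouse 512 had the highest level in each group, and again the groups did not overlap. Within a mouse, the changes of the 3 chains spanned 0.25, 0.40 and 0.19. Over the 6 arrays, which share mice in pairs, the levels of C1qa and C1qc correlated with r = 0.998 and those of C1qa and C1qb with r = 0.993. An r this high was not particular to the chains: it was 0.991 for C1qa with C1s1 and 0.987 for C1qc with C1ra.

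C1r, the protease that activates C1s, had the smallest fold of the 6 genes that rose. Its C1ra probe stood at -0.06, -0.57 and 1.68 in the controls and at 2.74, 2.63 and 2.76 in the ligated ones. The ligated kidneys were nearly equal (SD 0.0691, n = 3) and the controls were not (SD 1.18, n = 3), with changes of 2.80, 3.21 and 1.08. The log2 fold change was 2.36 ± 0.48 (adjusted p = 0.0367, limma), and the call was lost when dim probes were kept in the fit (adjusted p = 0.0532). The probe annotated to C1rb was dimmer and gave levels of -3.47, -3.59 and -1.79 against -0.85, -0.73 and -0.64. Its log2 fold change was 2.21 ± 0.39 in the fit of every probe (adjusted p = 0.0316), where 15.3% of all probes rose and 14.9% fell (30.2% either way). Its groups did not overlap, as for 24.2% of probes upward and 28.3% downward.

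C1s, which cleaves C4 and C2, was measured by 2 probes of 1 transcript. The brighter one stood at -0.76, -1.48 and 0.31 in the controls and at 1.75, 2.30 and 2.41 in the ligated ones. Mouse 485 had the lowest control and the largest change, 3.78, and the groups did not overlap. The log2 fold change was 2.80 ± 0.38 (adjusted p = 0.0259, limma). The dimmer probe, printed above, stood at -3.69, -3.84 and -2.09 against -1.30, -0.27 and -0.03, and its log2 fold change was 2.67 ± 0.35 in the fit of every probe (adjusted p = 0.0247).

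Serping1, the serpin that inactivates C1r and C1s, rose alongside the proteases. Its level was 1.00, 0.00 and 0.87 in the controls and 3.34, 3.49 and 3.57 in the ligated ones. It was the member whose controls differed least (SD 0.545, n = 3), and the contralateral kidney of mouse 512 lay inside the range of the other controls. The log2 fold change was 2.84 ± 0.28 (adjusted p = 0.0221, limma). Its change within mice was compared with the mean change of C1ra and C1s1, which was lower by 0.26 on average, at 0.32, 0.01 and -1.10 relative to Serping1 in mice 495, 485 and 512 (SD 0.75, n = 3). This difference did not pass an exact two-sided sign-flip test (p = 1, adjusted p = 1 over 8 comparisons), and 3 mice do not settle whether inhibitor and proteases rose equally.

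C4b, the substrate of C1s that forms the convertase with C2, was the member that fell. Its level was 2.58, 3.40 and 3.67 in the controls and 1.09, 2.78 and 2.45 in the ligated ones. As unscaled signal this was 4439, 7097 and 14081 against 2892, 9840 and 5836, so that in mouse 485 the ligated kidney was lower only after scaling (75th percentile 671 against 1432). On the scaled level C4b was lower in the ligated kidney of every mouse, by 1.50, 0.62 and 1.22, but the groups overlapped because the ligated kidney of mouse 485 lay above the control of mouse 495. The log2 fold change was -1.11 ± 0.23 (adjusted p = 0.0370, limma). It was not called without the mouse as a block (adjusted p = 0.136), with the slide as the block (0.127), with quantile normalization (-0.72, 0.137), with centring on spike-in spots (-0.84, 0.287) or with dim probes kept (0.0595). The C4a probe, which lists both genes as targets, gave a log2 fold change of -1.22 ± 0.26 (adjusted p = 0.0404) and was above background on 2 of 3 ligated arrays. Its call too was lost without the mouse block (0.0870), with the slide as the block (0.0670), with spike-in centring (0.235) and with dim probes kept (0.0626).

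C2, the protease component of that convertase, did not pass. The brighter of its 2 probes stood at 2.97, 3.04 and 4.37 in the controls and at 4.25, 4.14 and 4.26 in the ligated ones. The control kidney of mouse 512 was the highest of all 6 arrays, so that the change was 1.27, 1.10 and -0.11. The log2 fold change was 0.75 ± 0.33, with a 95% interval from -0.17 to 1.68 (adjusted p = 0.147, limma). Without mouse 512 it was 1.18 and passed (adjusted p = 0.00841). The other probe changed by 1.55, 1.39 and 0.03 in the same mice (adjusted p = 0.102 in the fit of every probe).

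**Figure D2:**
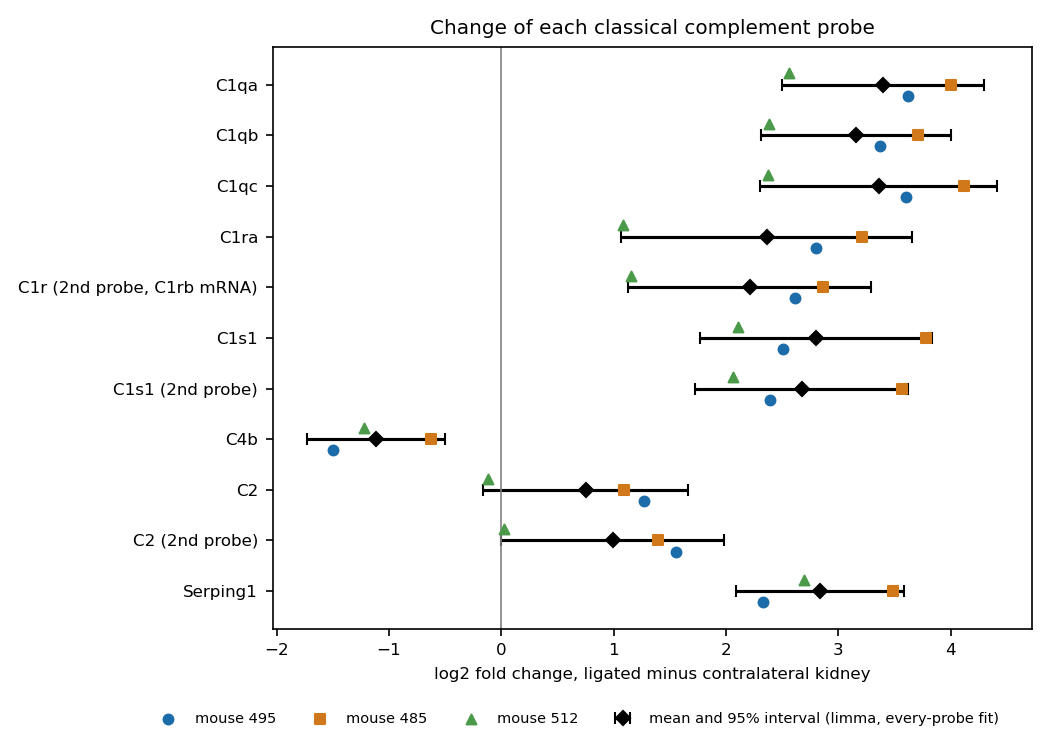
Log2 fold change, ligated minus contralateral (x axis), of the 11 probes (y axis): black diamonds and bars are the mean and 95% interval of the limma fit of every probe, and coloured points are mice 495, 485 and 512. Intervals of the C1q, C1r, C1s and Serping1 probes lie above 0, that of C4b lies below 0, and both C2 intervals include 0.

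The gaps between members were measured within mice. The mean change of the C1q chains exceeded that of C1ra and C1s1 by 0.88, 0.45 and 0.85 in mice 495, 485 and 512. It exceeded that of C2 by 2.26, 2.85 and 2.55 and that of C4b by 5.03, 4.57 and 3.66. C2 in turn changed more than C4b by 2.77, 1.72 and 1.11. Each of these 4 differences had 1 sign in all 3 mice, and each gave p = 0.25 in the exact two-sided sign-flip test, the smallest p that 3 pairs allow (adjusted p = 0.333 over 8 comparisons), so this design cannot take any of them past 0.05.

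In the contralateral kidney of mouse 512, 7 of the 8 genes stood above both other controls, against 39.4% of all genes tested. The C1q chains were higher there than the mean of the other controls by between 1.65 and 1.97, C1ra by 2.00, C1s1 by 1.43 and C2 by 1.37. C4b was higher there by 0.68, which is away from the ligated kidneys, and Serping1, by 0.37, was the exception of the 8. Among the ligated kidneys the SD of a gene was smaller than among the controls for 7 of 8 genes, C4b being the other one. Of the 8 genes, 6 had their smallest change in mouse 512, Serping1 had it in mouse 495 and C4b in mouse 485. For the counts of smaller SD and of smallest change, the share of all genes was not counted. Neither can therefore be read as particular to this pathway. Mouse 512 was on a slide of its own, and the other mice shared a slide, so that mouse and slide cannot be told apart.

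Markers of several cell types were higher in the ligated kidney along with the C1 genes, those of macrophages and fibroblasts in the largest share. The counts below stand against 16% of all genes tested that rose. Of 10 macrophage markers, 10 rose, all of them above background on every array. Their summed linear signal, in multiples of the 75th percentile, ran from 16.7 to 54.2 in contralateral and from 206 to 236 in ligated kidneys. Their median change in mice 495, 485 and 512 was 3.77, 3.83 and 1.91, beside 3.53, 3.94 and 2.44 for the mean of the C1q chains. Of 9 fibroblast markers, 8 rose, with a summed signal from 7.20 to 59.8 against 123 to 256 and median changes of 3.50, 3.46 and 2.36, beside 2.65, 3.49 and 1.59 for the mean of C1ra and C1s1. In the contralateral kidney of mouse 512, 9 of 10 macrophage and 7 of 9 fibroblast markers stood above both other controls. Of 5 T cell markers 4 rose, with median changes of 2.53, 3.20 and 3.22, and of 4 tested neutrophil markers 3 rose, with median changes of 3.19, 2.53 and 1.41. Of 5 endothelial markers 3 rose, at a median of 0.84. The part of these cells in the changes of the complement genes was not tested.

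Kidney epithelial transcripts were detected in both groups, with all 10 epithelial markers above background on every array. Among them are the proximal tubule gene Slc34a1, the thick limb gene Umod and the collecting duct gene Aqp2. Between 65.7% and 74.7% of all spots were well above background on an array, so detection is no measure of retained identity. Of these 10, 5 fell and 0 rose, against 14.7% and 16% of all genes tested. Their summed signal ran from 266 to 771 in contralateral and from 232 to 258 in ligated kidneys. The mean level of the 10 was 4.12, 3.97 and 2.41 in the controls and 2.23, 2.23 and 2.07 in the ligated kidneys. The control of mouse 512 thus lay near the ligated kidneys, and 0 of the 10 stood above both other controls there. Liver, the main source of circulating complement, was checked through 7 hepatocyte genes. Only 3 of them passed the filter, and none of the 3 passed the limma test, although 2 of them differed widely between mice. Albumin (Alb) changed by -6.23, -4.82 and 0.16 and was above background on 3 contralateral arrays and 1 ligated array (adjusted p = 0.108). The fibrinogen chain gene Fgb went the other way in mice 495 and 485, with changes of 6.00, 6.76 and -4.20, and was above background on 1 contralateral and 3 ligated arrays (adjusted p = 0.396). The third, Tat, stood at -0.45 ± 0.20, and the probes of Apoa1, Apoa2 and Ttr did not pass.

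**Figure D3:**
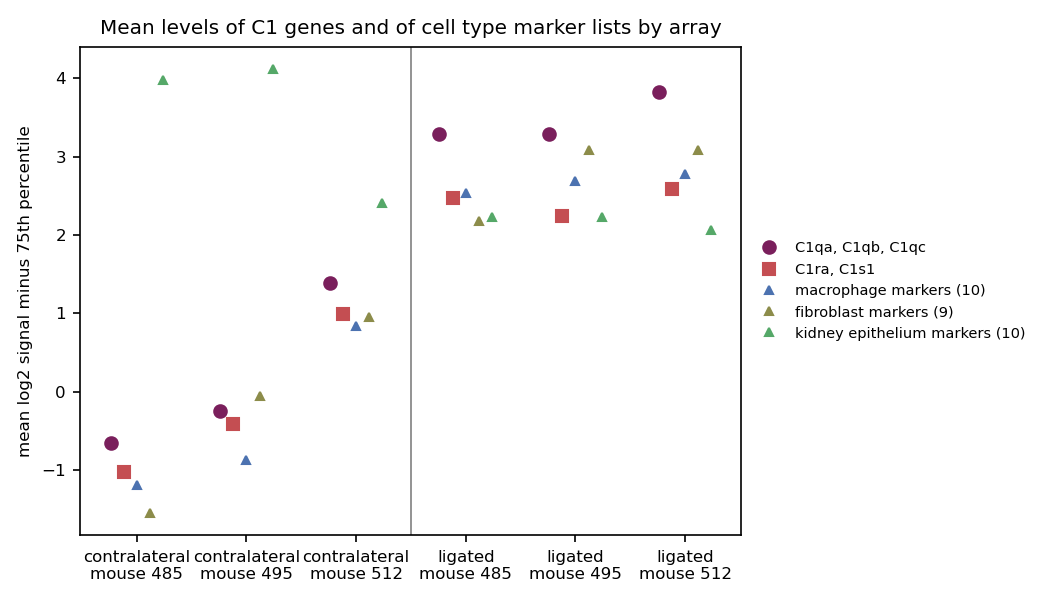
Mean level (log2 signal minus the 75th percentile, y axis) of the 3 C1q chains, of C1ra with C1s1, and of the macrophage, fibroblast and kidney epithelium markers on each of the 6 arrays (x axis). The C1q mean is -0.66, -0.25 and 1.39 on the contralateral arrays of mice 485, 495 and 512 and 3.28, 3.28 and 3.83 on the ligated ones; the heights of different lists are not comparable.

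The ranking by likeness took the tested genes with a current or plain symbol, members left out. Those most like the mean C1q profile over the 6 arrays were Gask1b, Lpxn, Ctss, Crmp1 and Fermt3, with r between 0.999 and 1.000. Ctss encodes cathepsin S, a lysosomal protease of antigen-presenting cells, and rose 9.41-fold, and Fermt3, an integrin activator of blood cells, rose 5.40-fold. Gask1b rose at least 5.94-fold, Lpxn 5.26-fold and Crmp1 at least 3.02-fold. Those most like the mean of C1ra and C1s1 were Il1r1, Pcdhb6, Nes, Tlr4 and Ski. Il1r1, the interleukin-1 receptor, rose 3.95-fold, and Tlr4, the endotoxin receptor, 5.50-fold. Pcdhb6 rose 3.50-fold, Nes 3.41-fold and Ski 1.64-fold. The 6 arrays fall into 2 groups and share mice, and these names describe the profiles only.

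The genes that flank the members on the chromosome, in the order of the RefSeq annotation, did not share 1 direction. Of all genes tested, 30.7% were called either way. Beside the C1q cluster, the receptor gene Ephb2 rose (1.26 ± 0.21, adjusted p = 0.0307), while on the other side Zbtb40 stood at -0.36 (adjusted p = 0.128) and the next tested gene, Wnt4, which encodes a secreted signal, rose (2.71 ± 0.38, adjusted p = 0.0269). Beside C1ra, the related gene C1rl fell (-1.36 ± 0.28, adjusted p = 0.0374, limma). C1rl was not called with spike-in centring (-1.08, adjusted p = 0.114) or with dim probes kept (0.0572). C1s2, a copy of C1s1 on the other side of the locus, stood at 1.62 (adjusted p = 0.168). On the side of C1s2, Lpcat3 fell (-0.94 ± 0.14, adjusted p = 0.0285, limma). The gene next to C2 is Cfb, the factor B gene that is its counterpart in the alternative pathway, and it fell (-0.71 ± 0.15, adjusted p = 0.0381). That call held under 8 of 16 alternatives, and the value was 0.02 (adjusted p = 0.949) with quantile normalization. On the other side of C2, Zbtb12 rose (0.90 ± 0.14, adjusted p = 0.0290). Beside Serping1, Ube2l6 rose (2.10 ± 0.40, adjusted p = 0.0340), and on the same side Timm10 fell (-0.95 ± 0.15, adjusted p = 0.0289, limma). Clp1 and Ypel4 on the other side of Serping1 were not called. Beside C4b, C4a fell, as given above, and Atf6b, Tnxb and Cyp21a1 were not called. Nor were Kdm1a near the C1q cluster, Clstn3 near C1ra, and Nelfe and Ehmt2 near C2. These neighbours were named after their values were seen.

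Because the C1q chains moved together, the 250 bases before the start of C1qb and of C1qc are shown from the RefSeq promoter table (build GRCm38.p6, sense strand of the gene), with the purine box GAGGAA in capitals, in either orientation. This box is read by Ets-family factors such as the myeloid regulator PU.1.
C1qb upstream, chr4:136886201-136886450 (minus strand): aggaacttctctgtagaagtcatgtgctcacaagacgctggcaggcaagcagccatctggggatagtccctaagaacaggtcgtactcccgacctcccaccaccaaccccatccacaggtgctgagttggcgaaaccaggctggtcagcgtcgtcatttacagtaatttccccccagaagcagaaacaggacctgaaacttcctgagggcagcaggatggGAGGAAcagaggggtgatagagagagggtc
C1qc upstream, chr4:136892915-136893164 (minus strand): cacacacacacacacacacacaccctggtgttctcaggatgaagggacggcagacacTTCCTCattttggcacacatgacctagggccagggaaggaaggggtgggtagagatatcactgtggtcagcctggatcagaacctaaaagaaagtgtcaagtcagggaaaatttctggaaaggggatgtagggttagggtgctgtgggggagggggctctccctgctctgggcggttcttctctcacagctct
The box begins 30 bases before the start of C1qb and 193 bases before that of C1qc, there on the opposite strand. Of all 32851 promoter windows of this length, 23.3% hold it on either strand, so its presence is no mark of these genes. The other motifs searched on both strands were TATAAA (in 12.4% of windows), CCAAT (33.8%), GAAA NN GAAA (3.0%), TTCNNNGAA (7.0%) and TTGCNNCAA (1.7%), and none was found in the C1qb, C1qc, C1ra or C1s1 window. The windows of C1ra and C1s1 held no GAGGAA either, and 4 of the 8 genes had an entry in the table.

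The rest of the complement system was followed through 58 genes in 8 lists, of which 7 were not found on the array by name, 9 did not pass the filter and 42 were tested. Of the 42, 16 rose and 8 fell, at a median log2 fold change of 0.88, against the 16% and 14.7% of all genes given above.

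Of 7 genes whose products bind C1q or act as its receptors, 5 rose and 1 fell, at a median of 1.79. The low-density lipoprotein receptor-related protein gene Lrp1 rose 4.69-fold (its other probe stood at 1.91, adjusted p = 0.0517), the inhibitory leukocyte receptor gene Lair1 4.50-fold (not called without the mouse block, adjusted p = 0.0683) and Cd93 3.46-fold. Megf10, an engulfment receptor, rose at least 1.85-fold, above background on no contralateral array, and stood at 0.03 with normexp background correction. The 1 that fell was C1qbp, a mainly mitochondrial C1q-binding protein (-1.02 ± 0.16), singled out after its value was seen. It was not called with quantile normalization (-0.38, adjusted p = 0.0934), spike-in centring (-0.74, 0.302) or dim probes kept (0.0503). Of 5 tested activators of C1, the immunoglobulin heavy chain gene Ighm rose 5.96-fold (1 of its 3 probes, at 2.69, was not called, adjusted p = 0.0987). Jchain, which joins antibody units, rose 2.60-fold, close to the threshold (adjusted p = 0.0495, limma), and its other probe missed it (adjusted p = 0.0545). The Jchain call held under 10 of 16 alternatives. The other 3 tested activators, among them the pentraxin gene Ptx3, did not pass. Of 4 B cell markers 1 rose, and their summed signal ran from 0.33 to 0.75 in contralateral and from 1.42 to 6.70 in ligated kidneys; their part in the antibody genes was not tested.

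Of 5 tested lectin pathway genes, 2 rose and 1 fell, at a median of 1.15. Masp1, a protease related to C1r and C1s, rose 4.47-fold (adjusted p = 0.0426, and 0.0577 without the mouse block), the ficolin gene Fcna rose at least 3.72-fold from below background on all contralateral arrays (but stood at 0.65, adjusted p = 0.484, with normexp background correction, and was not called without the mouse block, adjusted p = 0.0690), and the mannose-binding lectin gene Mbl1 fell 3.63-fold. Masp2, which like C1s cleaves C4 and C2, stood at 0.25 ± 0.15 (adjusted p = 0.251). The alternative pathway genes split, with properdin (Cfp) 7.15-fold higher and Cfb lower, as above.

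Downstream of the classical convertase, C3 did not pass, at a log2 fold change of 2.76 ± 0.81 (adjusted p = 0.0671). It changed by 3.63, 4.14 and 0.50, and C3 was picked out after its values were seen. It passed without mouse 512 (3.88, adjusted p = 0.00347), without the control of that mouse (3.91, 0.000628), with spike-in centring (0.0252) and with the slide as the block (0.0366). Of 5 tested genes in the list of C3, C5 and terminal components, C6 rose 7.42-fold (1.24 on the log2 scale with normexp, against 2.89) and C8g fell 4.51-fold. Among the tested regulators, the decay-accelerating factor genes Cd55 and Cd55b fell 3.81-fold and at least 4.62-fold, and 7 genes did not pass. The other Cd55 probe stood at -0.66 and was not called, and Cd55b stood at -1.13 with normexp (adjusted p = 0.0512). The membrane regulator Cr1l stood at -0.22 ± 0.16 and Cd59a at -0.28 ± 0.16. Of 5 tested receptors of complement fragments, 4 rose and 0 fell: C3ar1 at least 11.0-fold, Itgam 8.78-fold, Itgax 8.76-fold and C5ar2 3.52-fold. With normexp these 4 stood at 1.59, 1.91, 2.86 and 1.19 on the log2 scale, against 3.67, 3.13, 3.13 and 1.82. C3ar1 was above background on 1 contralateral array, and its bound is that of the main fit only. Itgam was not called with dim probes kept (adjusted p = 0.0559, limma), and the other Itgax probe stood at 1.78. Itgam and Itgax encode myeloid integrin chains, and the macrophage markers given above moved with them.

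**Figure D4:**
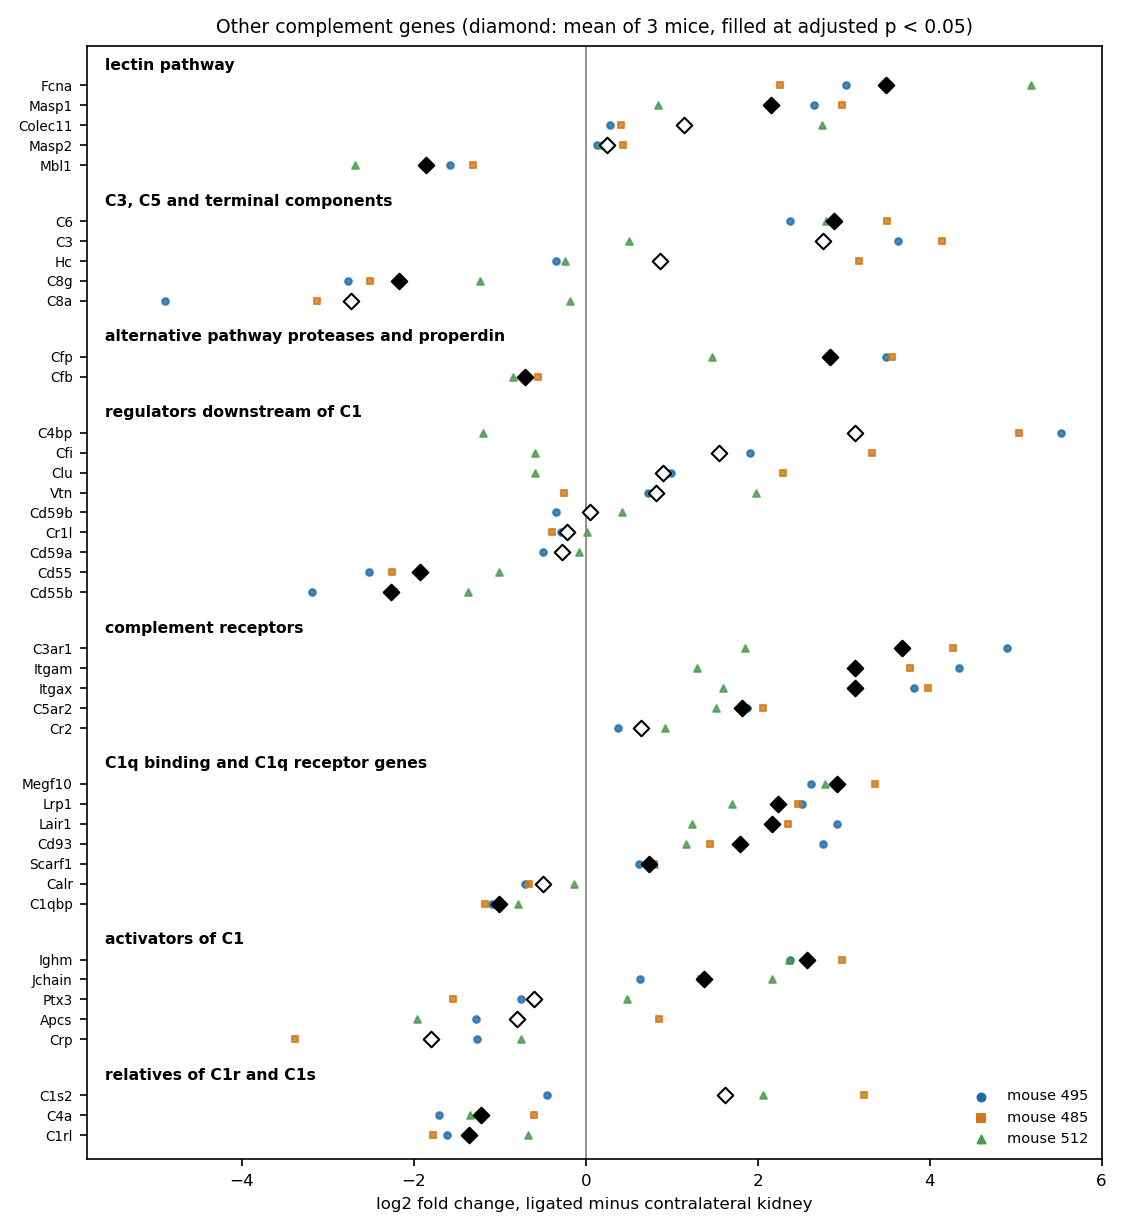
Log2 fold change, ligated minus contralateral (x axis), of the other complement genes tested, all but 1 of the 42 (y axis), grouped by list: diamonds are the mean of 3 mice, filled at an adjusted p under 0.05 in limma, and small points are mice 495, 485 and 512. C3, C4bp, Cfi and Hc show wide gaps between mice, and 4 of 5 receptors are filled and lie to the right of 0.

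The calls of the 7 members depended on mice 495 and 485. Without mouse 495 or without mouse 485, 0 of the 8 genes passed in limma, as did 0 of all genes, although 7 of the 8 kept an unadjusted p under 0.05 in both fits. The adjusted p of the 7 then lay between 0.118 and 0.197, with log2 fold changes of 3.28 and 3.09 for C1qa and of -0.92 and -1.36 for C4b. Without mouse 512 all 8 genes passed, C1qa at 3.81 (adjusted p = 0.00347), C2 at 1.18 as above and C4b at -1.06 (adjusted p = 0.0401).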

How the data were processed

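Total RNA of 6 kidneys was labelled with Cy3 and hybridised to single-colour Agilent mouse arrays (design in mm8), per the labels' protocols. Each array's deposited scanner output gives spots as an intensity, background-subtracted and detrended but not scaled between arrays, per the file headers. The headers name Feature Extraction 10.5.1.1 and the submitters' processing notes name 9.1. The deposited value table holds a ratio, each signal divided by the median of its array.

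Of 43379 non-control spots per array none was saturated, and outlier spots were removed (0 among the member probes). Log2 signals were scaled to the 75th percentile, and spots of a probe were averaged. Kept probes were well above background (in at least 0.5 of their spots) on all 3 arrays of a group. A gene took its current symbol by RefSeq accession (24375 probes) or else kept the file's name, and its brightest probe stood for it. Limma 3.58.1 in R 4.3.3 fitted group with the mouse as a block (2 residual degrees of freedom plus 2.06 from eBayes), two-sided, with Benjamini-Hochberg adjustment over all genes; a call is an adjusted p under 0.05. The fit was tested on simulated data. P-values set the mean change against its spread among 3 mice, moderated by eBayes over all genes, and the number of arrays limits precision.

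Kidneys were paired by the labels' mouse numbers, and deviations of the 2 kidneys of a mouse correlated (r = 0.194, 0.481 and 0.271 in mice 495, 485 and 512). Bounds written "at least" set dim arrays to the lowest level above background on that array. The 75th percentile of the signal was 671 to 1106 in contralateral and 1068 to 1432 in ligated kidneys, and 65.7% to 69.5% and 72.1% to 74.7% of spots were well above background.

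Members and lists were chosen with earlier results of these data known. Named genes were all members and the 4 called genes with the largest change in each other complement list. Also named were the 5 genes, of those with a current or plain symbol, with the highest r to the C1q and to the C1ra and C1s1 profile. Other complement genes, such as C3, C1qbp, Masp2, Cr1l, Cd59a and Ptx3, and the chromosomal neighbours were named with their values known. The 16 alternatives covered scaling, background correction, filter, probes per gene, block, slide, variance trend, the value table and left-out mice. RefSeq supplied promoter sequences (GRCm38.p6). For 1 gene of the other complement lists, values are not reported here.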

Additional observations from a re-analysis of the deposited data

How the results depend on the processing

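Directions of the 8 classical pathway genes were the same under all 16 alternatives. The count of 7 called members was 5 with no filter on dim probes, 6 with quantile normalization, with centring on spike-in spots and with the slide as the block, and otherwise 7 except where mice were left out, as given below, and in the fit without the pairing. With no replicate block, 6 members, 20 other complement genes and 5538 of all genes passed, against 7, 24 and 6019 in the paired fit. C4b was the member lost in each of these fits, joined by C1ra with no filter. Leaving out 1 mouse gave between 0 and 8 called members, between 0 and 32 other complement genes and between 0 and 11122 of all genes; the 0 counts are those without mouse 495 or mouse 485 (limma), with 4979 and 5019 of all genes at an unadjusted p under 0.05, and 24 and 25 of the other complement genes. Without the contralateral kidney of mouse 512, in an unpaired fit, 7 members (C2 in, C4b out) and 11185 of all genes passed. Of all genes, 3040 passed with centring on spike-in spots and 2662 with no filter, where 14 other complement genes passed. The median change of all genes was -0.32 with centring on the median and 0.26 on the spike-in scale, so changes are relative to that shift; calls split into 2561 higher and 5938 lower with the former and 2363 and 677 with the latter, against 3135 and 2884. They split into 1992 and 2787 with normexp and 1760 and 902 with no filter. Cfb turned from -0.71 to 0.024 with quantile normalization (call lost); the cause was not tested. Dim probes set the limit for Fcna and Megf10, whose controls were below background. They also did so for C3ar1, above background on 1 contralateral array, and for Cd55b, above background on 2 ligated arrays.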
